A study of Mus musculus with 6 samples.

Results

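MHC class I antigen presentation was followed here through 10 genes measured by RNA-seq in the dorsal hippocampus, out of 55401 genes counted. The genes were chosen by name for their place in the pathway, with earlier results of these data known. They are the heavy chains H2-K1 and H2-D1, the light chain B2m, the peptide loading genes Tap1, Tap2 and Tapbp, the immunoproteasome subunits Psmb8, Psmb9 and Psmb10, and the regulator Nlrc5. All 10 were found by symbol in the gene annotation, and all 10 passed the filter on low counts that left 19969 genes for testing. Dorsal hippocampi of 3 WT mice injected with Control-ASO were compared with those of 3 WT mice injected with Snhg11-ASO. An ASO is a short, chemically modified oligonucleotide that binds an RNA by base pairing so that RNase H cuts the RNA, and the Control-ASO has the bases of the Snhg11-ASO in another, scrambled order. The mice were WT littermates of the Ts65Dn line at 4 months of age, which is bred on hybrids of C57/6Ei and C3H/HeSnJ, and the tissue was taken 3 days after bilateral injection into the dentate gyrus. Both groups therefore share the surgery and an oligonucleotide of the same chemistry, and mice without injection were not analysed here. In these libraries Ddx3y lay between 62.5 and 94.7 CPM and Xist at no more than 0.184 CPM, the levels of male tissue.

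Class I molecules display short peptides from the inside of a cell on its surface. The proteasome cuts proteins into peptides, the transporter made of TAP1 and TAP2 carries them into the endoplasmic reticulum, and tapasin, the product of Tapbp, helps them onto the heavy chain, which needs β2-microglobulin to reach the surface. Interferons raise the expression of the whole pathway, in part through NLRC5, a protein that acts at class I promoters, and exchange the catalytic subunits of the proteasome for those of the immunoproteasome. In the healthy brain class I levels are low, with more in microglia and endothelial cells than in most neurons, and class I proteins on neurons have been tied to synapse refinement.

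Levels are given as CPM, read pair counts scaled to a common library total, here the total over the genes tested multiplied by a TMM factor. Log2 fold changes are Snhg11-ASO over Control-ASO from edgeR's quasi-likelihood test, with their standard error and a Benjamini-Hochberg adjusted p over all 19969 genes. Values are always listed in the order of replicates 1, 2 and 3. Snhg11 itself had 551, 436 and 209 CPM across Control-ASO against 139, 65.4 and 69.4 CPM across Snhg11-ASO. The groups thus did not overlap for the targeted RNA. Its log2 fold change was -2.13 (unadjusted p = 0.00172, adjusted p = 0.395 from edgeR). DESeq2 on the same counts gave Snhg11 an adjusted p of 5.3e-05. Libraries held 28951250, 34293344 and 33079848 counts on genes across Control-ASO against 38556524, 41868810 and 43997537 across Snhg11-ASO. Every Snhg11-ASO library was thus deeper than every Control-ASO library, and Control-ASO replicate 1 was the shallowest. Control-ASO replicate 1 had the lowest CPM of the 6 samples for 9 of the 10 class I genes, against 16.4% of all genes tested. Snhg11-ASO replicate 1 stood apart in cell type markers, with the lowest summed level of microglia genes and the highest of monocyte and neutrophil genes.

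All 10 class I genes had a higher mean in Snhg11-ASO than in Control-ASO, with log2 fold changes from 0.44 for Psmb10 to 1.18 for Tap1. Of all genes tested, 51.7% had a log2 fold change above 0. The median of the 10 genes was 0.87 and that of all genes tested 0.01. None of the 10 passed an adjusted p of 0.05 in edgeR, where 0% of all genes did. The adjusted p-values of the 10 lay between 0.46 for Nlrc5 and 0.742 for H2-D1. The targeted RNA, Snhg11, did not pass in edgeR either, so the lack of calls is not particular to the class I genes. At an unadjusted p under 0.05 there were 7 of the 10, all higher, against 8.11% of all genes in either direction and 3.68% that were higher. For 7 of the 10 every Snhg11-ASO sample lay above every Control-ASO sample, against 7.73% of all genes, and 15.4% of all genes had no overlap in either direction. With the replicate number as a block, an assumed pairing that the sample titles do not state, all 10 had an unadjusted p under 0.05. Of all genes 3.99% were higher at that level, and 0 of the 10 had an adjusted p under 0.05. In DESeq2 on the same counts 3 of the 10, Tap1, Tap2 and Nlrc5, passed an adjusted p of 0.05, against 0.466% of all genes in that direction. The 10 genes were chosen with earlier results of these data known, so these counts against all genes are a description only. Bulk RNA cannot tell more cells of a type apart from more RNA per cell, and that holds for every gene below.

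**Figure D1:**
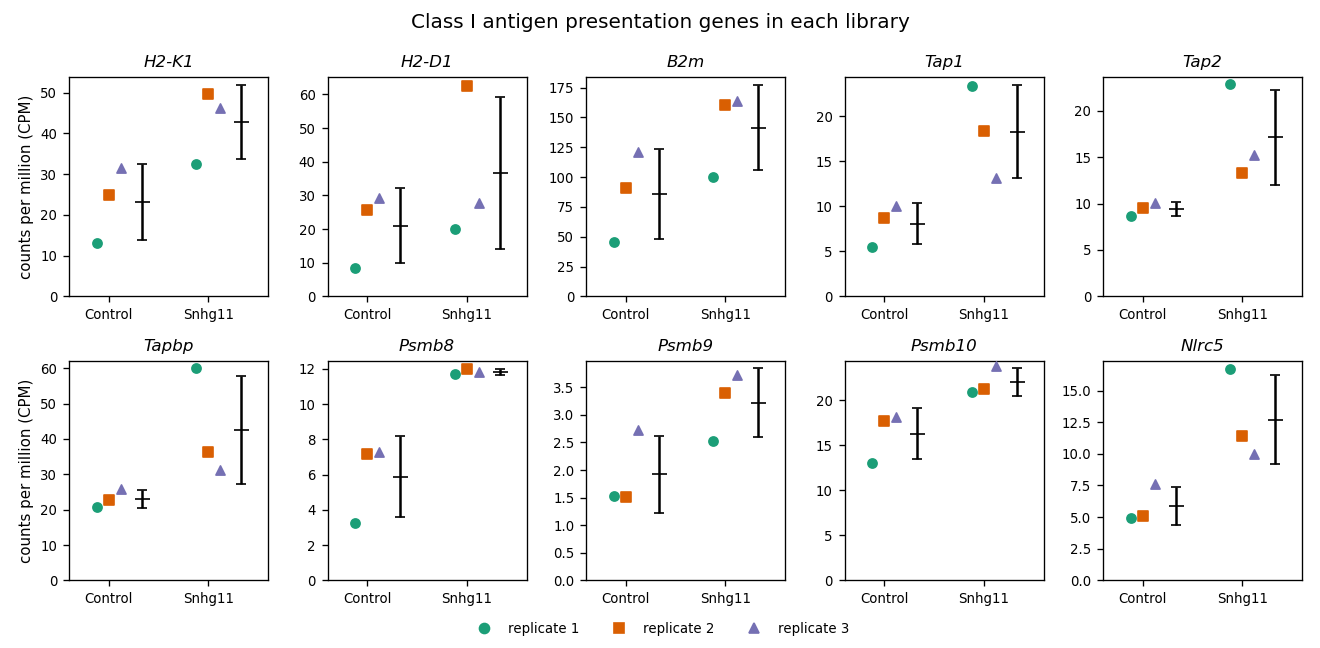
CPM of the 10 class I genes in each library, with 1 panel per gene and a linear axis from 0. Points are libraries, marked by replicate number, and the bars beside them are the mean ± SD of 3 samples. The groups do not overlap for 7 of the 10 genes and overlap for H2-D1, B2m and Psmb9.

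The heavy chain H2-K1 (ENSMUSG00000061232) lies on the minus strand of chromosome 17 of GRCm38, from 33996017 to 34000347. It encodes 1 of the classical class I heavy chains, which bind the peptide and are read by T cells. H2-K1 had 13, 24.8 and 31.6 CPM across Control-ASO against 32.6, 49.6 and 46.3 CPM across Snhg11-ASO. The lowest Snhg11-ASO sample, replicate 1, lay just above the highest Control-ASO sample, replicate 3. The mean was 23.1 ± 9.44 CPM in Control-ASO and 42.8 ± 9 CPM in Snhg11-ASO (SD, n = 3 per group), which gave a log2 fold change of 0.89 with a standard error of 0.32 (unadjusted p = 0.0288, adjusted p = 0.567 from edgeR). An exact permutation test, two-sided, gave p = 0.1, the smallest p that 3 against 3 samples allow.

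H2-D1 (ENSMUSG00000073411), the other classical heavy chain of the reference strain, lies on the plus strand of chromosome 17 from 35262730 to 35267499. Control-ASO samples had 8.29, 25.6 and 29.2 CPM and Snhg11-ASO samples 20.1, 62.4 and 27.6 CPM. Only Snhg11-ASO replicate 2 lay above all Control-ASO samples, and the groups overlapped. Its log2 fold change was 0.80 with a standard error of 0.56 and a 95% interval from -0.52 to 2.12 (adjusted p = 0.742 from edgeR). Leaving out Snhg11-ASO replicate 2 gave 0.18, and the replicate block gave an unadjusted p of 0.0383 (adjusted p = 0.568 from edgeR). The samples of replicate 3 went the other way, with 29.2 CPM in Control-ASO against 27.6 CPM in Snhg11-ASO.

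B2m (ENSMUSG00000060802), the light chain shared by class I molecules, lies outside the MHC, on the plus strand of chromosome 2 from 122147686 to 122153083. Its level was 45.8, 90.8 and 121 CPM across Control-ASO against 100.4, 160.2 and 164 CPM across Snhg11-ASO. Snhg11-ASO replicate 1 lay below Control-ASO replicate 3, so the groups overlapped. The log2 fold change of B2m was 0.72 with a standard error of 0.35 (unadjusted p = 0.0828, adjusted p = 0.66 from edgeR), and 0.41 without Control-ASO replicate 1. Each Snhg11-ASO sample lay above the Control-ASO sample of the same number, and with the replicate block the unadjusted p was 0.00245 (adjusted p = 0.426 from edgeR).

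Within a library, H2-K1 and B2m kept a close ratio. H2-K1 counts were 28.3%, 27.3% and 26.1% of the B2m counts across Control-ASO against 32.5%, 31% and 28.3% across Snhg11-ASO. H2-D1 did not keep such a ratio to H2-K1, at 64%, 103% and 92.2% across Control-ASO against 61.7%, 126% and 59.5% across Snhg11-ASO. High and low values of this second ratio occurred in both groups.

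The DNA before the starts of these genes is shown because class I promoters are known to carry a shared module, an X box followed by a Y box, on which NLRC5 acts. Sequences are from RefSeq on GRCm38.p6 and read 5′ to 3′ on the gene's strand. Capitals mark 3 motifs: GAANNGAAA (an interferon response element, here on the other strand as TTTCACTTC), TGACG (part of the X box) and ATTGG (the Y box, an inverted CCAAT box). The H2-K1 stretch runs from 95 to 7 bases before the start, chr17:34000354-34000442 on the minus strand. The H2-D1 stretch is the module alone, chr17:35262993-35263022 on the plus strand, from 101 to 72 bases before the RefSeq start. That start lies downstream of the GENCODE start of H2-D1 given above, 35262730, so the stretch falls within the gene span given above. The B2m stretch is chr2:122147604-122147643 on the plus strand.
H2-K1: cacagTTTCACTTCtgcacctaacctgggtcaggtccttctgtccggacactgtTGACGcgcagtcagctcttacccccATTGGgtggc
H2-D1: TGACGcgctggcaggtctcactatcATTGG
B2m: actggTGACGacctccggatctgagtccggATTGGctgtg

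In all 3 genes TGACG is followed by exactly 20 bases and then ATTGG. Over these 30 bases H2-K1 and H2-D1 were identical at 23 positions, H2-K1 and B2m at 13, and H2-D1 and B2m at 12. Promoters of 8 of the 10 class I genes were in the RefSeq table, those of Tap2 and Nlrc5 were not. Searched on both strands in the 250 bases before the start, TGACG followed on the same strand by ATTGG with at most 30 bases between occurred in 3 of these 8 genes, namely the heavy chains and B2m, and in 0.895% of 27025 genes. GAANNGAAA occurred in H2-K1 and H2-D1 and in 7.3% of all genes. TGACG alone was found in 5 of the 8 (19.8% of all genes) and ATTGG alone in 6 of the 8 (37.5% of all genes). These matches describe letters in a window and do not show that a factor was bound.

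Tap1 and Tap2 encode the 2 chains of the peptide transporter, and Tapbp encodes tapasin. Tap1 (ENSMUSG00000037321; chromosome 17, 34187553 to 34197225, plus strand) had 5.51, 8.74 and 10 CPM across Control-ASO against 23.4, 18.4 and 13.1 CPM across Snhg11-ASO. Every Snhg11-ASO sample lay above every Control-ASO sample, and Snhg11-ASO replicate 1 was the highest. The mean was 8.08 ± 2.32 against 18.3 ± 5.19 CPM (SD, n = 3 per group), with the largest log2 fold change among the 10 genes, 1.18 with a standard error of 0.29 (unadjusted p = 0.00477, adjusted p = 0.465 from edgeR). DESeq2 gave Tap1 an adjusted p of 0.0141.

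Tap2 (ENSMUSG00000024339; chromosome 17, 34203527 to 34216321, plus strand) varied little among Control-ASO samples, at 8.63, 9.48 and 10.1 CPM. The Snhg11-ASO samples had 22.9, 13.3 and 15.2 CPM, all above the Control-ASO samples. Its log2 fold change was 0.86 with a standard error of 0.22 (unadjusted p = 0.00591, adjusted p = 0.483 from edgeR, adjusted p = 0.0334 from DESeq2).

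Tapbp (ENSMUSG00000024308; chromosome 17, 33915899 to 33929292, plus strand) had 20.8, 22.7 and 25.8 CPM across Control-ASO against 60, 36.3 and 31.3 CPM across Snhg11-ASO. The groups did not overlap, and again Snhg11-ASO replicate 1 was highest. The log2 fold change of Tapbp was 0.88 with a standard error of 0.25 (unadjusted p = 0.00936, adjusted p = 0.498 from edgeR, adjusted p = 0.0557 from DESeq2). The value was 0.55 without Snhg11-ASO replicate 1. Exons of Tapbp and Zbtb22 share 149 bases on the same strand, and read pairs that fall on both are counted for neither.

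**Figure D2:**
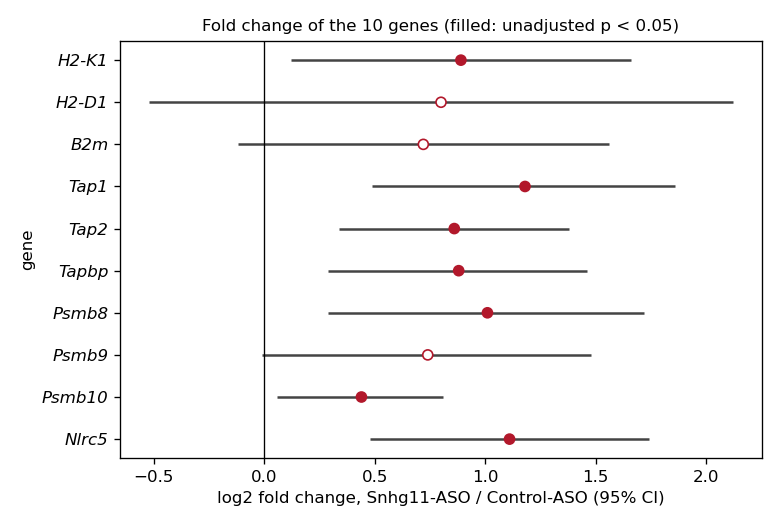
Log2 fold change of each class I gene, Snhg11-ASO over Control-ASO, with its 95% confidence interval from edgeR's quasi-likelihood fit. Filled points mark the 7 genes at an unadjusted p under 0.05, and the intervals of H2-D1, B2m and Psmb9 include 0.

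The immunoproteasome subunits replace the 3 catalytic subunits of the constitutive proteasome. Psmb8 (ENSMUSG00000024338; chromosome 17, 34197721 to 34201454, plus strand) was counted at 3.23, 7.16 and 7.27 CPM in Control-ASO. In Snhg11-ASO it was nearly the same in all samples, at 11.7, 12 and 11.8 CPM. The log2 fold change of Psmb8 was 1.01 with a standard error of 0.30 (unadjusted p = 0.0127, adjusted p = 0.527 from edgeR).

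Psmb9 (ENSMUSG00000096727; chromosome 17, 34181987 to 34187764, minus strand) was the least abundant of the 10 genes, with 45 to 163 counts per library. It had 1.53, 1.52 and 2.73 CPM across Control-ASO against 2.52, 3.4 and 3.73 CPM across Snhg11-ASO. Control-ASO replicate 3 lay above Snhg11-ASO replicate 1, so the groups overlapped. Its log2 fold change was 0.74 with a standard error of 0.32 (unadjusted p = 0.0517, adjusted p = 0.618 from edgeR), with an unadjusted p of 0.0262 under the replicate block. Psmb9 and Tap1 lie head to head and share 212 exonic bases on opposite strands, and 82.1% of the strand-resolved counts of Psmb9 were on its own strand, the lowest share of the 10 genes.

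Psmb10 (ENSMUSG00000031897) lies on the minus strand of chromosome 8 from 105935735 to 105938444. Control-ASO samples had 13, 17.7 and 18.1 CPM and Snhg11-ASO samples 20.9, 21.3 and 23.8 CPM, with no overlap. The log2 fold change was the smallest of the 10, 0.44 with a standard error of 0.16 (unadjusted p = 0.0283, adjusted p = 0.567 from edgeR), and it was 0.29 without Control-ASO replicate 1.

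Each induced subunit was also set against the constitutive subunit whose place it takes, as a ratio of counts within a library, which needs no scaling between libraries. Psmb8 counts were 34.5%, 56% and 71% of Psmb5 counts across Control-ASO against 85.8%, 67.9% and 72.5% across Snhg11-ASO, with overlapping groups. Psmb9 reached 3.02%, 2.92% and 6.36% of Psmb6 across Control-ASO against 4.52%, 7.45% and 6.64% across Snhg11-ASO, again with overlap. Psmb10 stood at 19.5%, 24.3% and 26.6% of Psmb7 across Control-ASO against 28.2%, 30.9% and 32.6% across Snhg11-ASO, and there the groups did not overlap. The differences in mean log2 ratio were 0.54, 0.67 and 0.39, with exact permutation p-values of 0.2, 0.2 and 0.1, two-sided, and 0.2 for each after Benjamini-Hochberg adjustment over the 3 ratios. Without Control-ASO replicate 1 the difference for Psmb8 was 0.25 and that for Psmb10 was 0.26, and without Control-ASO replicate 3 that for Psmb9 was 1.03. Of all genes tested 51.7% had a log2 fold change above 0, and 3.68% were higher at an unadjusted p under 0.05. Of 14 constitutive subunits, all had a log2 fold change above 0, with a median of 0.14, and 2 had an unadjusted p under 0.05. They were Psmb5, with a log2 fold change of 0.56 (9.35, 12.8 and 10.2 CPM against 13.7, 17.7 and 16.3 CPM), and Psmb2, with 0.27. Psmb7 had the smallest value, 0.06.

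**Figure D3:**
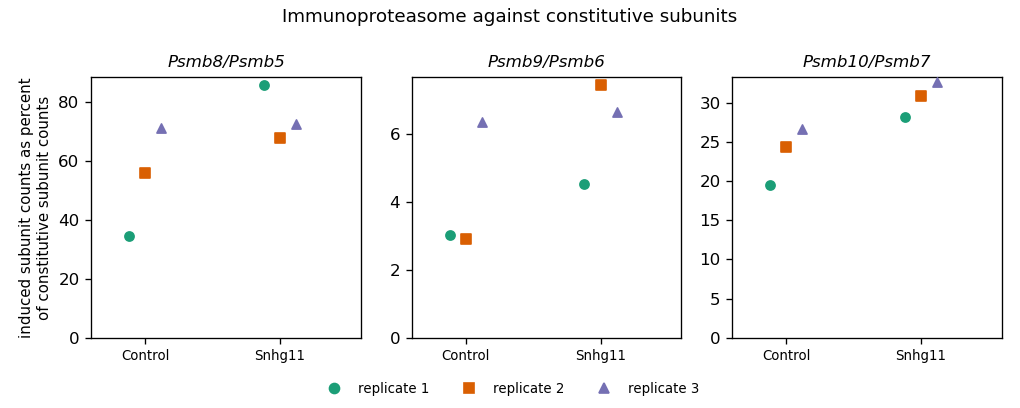
Counts of each induced proteasome subunit as a percent of the counts of the constitutive subunit it replaces, in each library, on linear axes from 0. The groups do not overlap for Psmb10 over Psmb7 (19.5% to 26.6% in Control-ASO, 28.2% to 32.6% in Snhg11-ASO) and overlap for the other ratios.

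Nlrc5 (ENSMUSG00000074151), the class I transactivator, lies on the plus strand of chromosome 8 from 94434356 to 94527272. Its level was 4.96, 5.05 and 7.6 CPM across Control-ASO against 16.7, 11.4 and 9.99 CPM across Snhg11-ASO. All Snhg11-ASO samples lay above all Control-ASO samples, with replicate 1 highest. The mean was 5.87 ± 1.5 against 12.7 ± 3.53 CPM (SD, n = 3 per group), which gave a log2 fold change of 1.11 with a standard error of 0.26 and a 95% interval from 0.48 to 1.74 (unadjusted p = 0.00409, adjusted p = 0.46 from edgeR, adjusted p = 0.0139 from DESeq2). Without each sample in turn it ranged from 0.86 to 1.33.

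Per length of merged exons the 10 genes spanned a wide range of mean levels. In Control-ASO the mean level was 100 RPKM (CPM per kilobase of exon) for B2m, 9.53 for Psmb10, 8.15 for H2-D1, 7.87 for H2-K1 and 6.37 for Tapbp. Tap2 at 2.49, Psmb8 at 1.74, Tap1 at 1.48, Nlrc5 at 0.691 and Psmb9 at 0.526 RPKM lay lower. The spread over samples was wider than the steps between H2-K1 and H2-D1 and between Tap1 and Psmb8. In Snhg11-ASO B2m was at 164, H2-K1 at 14.6, H2-D1 at 14.2, Psmb10 at 12.9 and Tapbp at 11.7 RPKM.

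The libraries did not order all 10 genes alike. Relative to the Control-ASO mean of log2 CPM, Snhg11-ASO replicate 1 was higher by 1.57 for Tap1, 1.28 for Tap2, 1.38 for Tapbp and 1.53 for Nlrc5, and it was the highest of the 6 samples for these 4 genes, as it was for 33.3% of all genes. For H2-K1, H2-D1 and B2m the same library was higher by 0.59, 0.13 and 0.34 and was the lowest of the Snhg11-ASO samples. Snhg11-ASO replicate 2 was the highest sample for 3 of the 10 genes and replicate 3 for 3. Tap1 counts amounted to 23.3% of B2m counts in Snhg11-ASO replicate 1 and to 7.99% to 12% in the other samples.

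**Figure D4:**
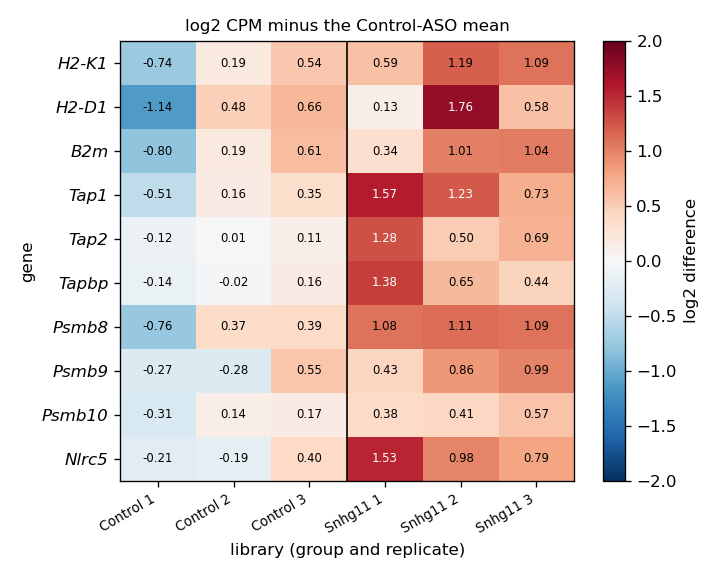
Log2 CPM of the 10 class I genes in each library minus the mean of the 3 Control-ASO samples of that gene. Columns are libraries, rows genes, and the number in each cell is the difference, from -1.14 (H2-D1, Control-ASO replicate 1) to 1.76 (H2-D1, Snhg11-ASO replicate 2).

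Other genes of the pathway were taken from lists written by hand. To set beside each list, 51.7% of all genes tested had a log2 fold change above 0. A share of 3.68% was higher at an unadjusted p under 0.05. At an adjusted p under 0.05 DESeq2 called 0.466% as higher, and edgeR called 0 genes. Of 17 further class I or class I-like heavy chains, 13 could be tested, of which 12 had a log2 fold change above 0 and 4 had an unadjusted p under 0.05, all higher, with a list median of 0.74. H2-Q4, a non-classical heavy chain, had 3.4, 3.89 and 4.16 CPM across Control-ASO against 12.4, 8.9 and 8.27 CPM across Snhg11-ASO, with a log2 fold change of 1.37 (unadjusted p = 3.4e-04, adjusted p = 0.304 from edgeR, adjusted p = 7.4e-06 from DESeq2). H2-T23, whose product presents signal peptides of other class I chains to NK cells, was at 5.17, 11.9 and 17.2 CPM against 28.1, 27.4 and 27.3 CPM. Cd1d1, a lipid-presenting relative, had the largest log2 fold change of the list, 2.24, with 0.816, 0.595 and 0.267 CPM against 5.53, 0.981 and 1.42 CPM. H2-M5 had the smallest, -0.07.

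Among 12 further loading and proteasome activator genes 8 had a log2 fold change above 0, and 3 had an unadjusted p under 0.05. These were Erap1, which trims peptides in the endoplasmic reticulum (log2 fold change 0.49), and Psme1 and Psme2, the subunits of the interferon-inducible proteasome activator (0.38 and 0.40). Psme1 had 19.1, 19.9 and 22.4 CPM across Control-ASO against 26.2, 26.6 and 27.1 CPM across Snhg11-ASO, without overlap. The general chaperone Calr had the lowest value of the list, -0.16 (adjusted p = 0.836 from edgeR).

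Of 24 transcription and interferon signalling genes 20 had a log2 fold change above 0, and 4 had an unadjusted p under 0.05 (median 0.18). Stat2 lay at 18.6, 34.5 and 35.3 CPM against 92.8, 57.7 and 40.2 CPM, a log2 fold change of 1.11. Irf1, an interferon-induced activator of class I genes, had 6.93, 8.86 and 10.4 CPM against 33, 12.4 and 10.7 CPM, with most of its difference in Snhg11-ASO replicate 1. Irf9 (0.81) and Jak2 (0.32) were the others. Irf7 had the largest log2 fold change, 1.13 (unadjusted p = 0.0687). The factors that bind the X and Y boxes together with NLRC5 lay between -0.10 for Nfyc and 0.21 for Nfyb, among them Rfx5 at -0.05, and had unadjusted p-values of 0.141 or more.

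All 17 interferon-inducible genes tested had a log2 fold change above 0, with a median of 1.28, against 51.7% of all genes above 0. An unadjusted p under 0.05 was reached by 9 of them, against 3.68% of all genes that were higher. DESeq2 called 6, against 0.466% of all genes in that direction, and edgeR called 0. The summed level of the 18 genes on that list was 109.6, 292 and 362 CPM across Control-ASO against 635, 674 and 519 CPM across Snhg11-ASO. Control-ASO replicate 1 was thus lowest for this list as it was for the class I genes, whose summed level was 125, 214 and 264 CPM across Control-ASO against 311, 388 and 347 CPM across Snhg11-ASO. The largest log2 fold change was that of Igtp, an interferon-inducible GTPase (1.89), and the smallest that of Bst2 (0.70).

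Class II genes, which serve presentation to helper T cells, were counted at under 10 CPM in every library except for Ctss, a protease that also has other roles, at 46.7 to 119.9 CPM. Of 9 tested, 8 had a log2 fold change above 0 (median 0.35), and 0 were past an unadjusted p of 0.05 by edgeR or called by DESeq2. Of all genes 3.68% were higher at that unadjusted p and DESeq2 called 0.466% as higher, so 0 of 9 does not set this list apart. H2-Ab1 had the largest value (0.58, unadjusted p = 0.0517 from edgeR) and H2-DMa the smallest (-0.07). The groups did not overlap for H2-Ab1, at 1.04 to 1.34 CPM in Control-ASO and 1.55 to 2.06 CPM in Snhg11-ASO. Ciita, the class II counterpart of Nlrc5, had 0.451 CPM in Control-ASO and 0.571 CPM in Snhg11-ASO on average (log2 fold change 0.35, adjusted p = 0.813 from edgeR). Only 8.8% of the strand-resolved counts of Ciita and 50.4% of those of H2-DMa were on the gene's own strand, so their levels are uncertain.

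Cells that read class I molecules left few counts. Of 14 T and NK cell genes 2 could be tested, Lck with a log2 fold change of 0.64 (unadjusted p = 0.0338 from edgeR, 0.92 to 1.07 CPM against 1.36 to 1.76 CPM) and Trac with -0.37. The summed level of the 14 genes was 1.87 to 2.79 CPM in Control-ASO and 1.81 to 3.11 CPM in Snhg11-ASO. Cd8a, the coreceptor of class I-restricted T cells, had 1 to 3 counts in every library, and Cd3e was at 0 in 3 of the 6. The inhibitory receptors Pirb and Lilrb4a, found on myeloid cells and in the case of Pirb also on neurons, were higher in every Snhg11-ASO sample. Pirb had 1.5, 1.34 and 1.34 CPM against 9.89, 1.65 and 2.27 CPM, and Lilrb4a 1.63, 1.13 and 1.4 CPM against 14.3, 3.28 and 2.93 CPM (log2 fold changes 1.72 and 2.30, adjusted p = 0.589 and 0.498 from edgeR). In DESeq2 Lilrb4a passed, with an adjusted p of 0.017, and Pirb had 0.19. For both, Snhg11-ASO replicate 1 was far above the other samples.

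**Figure D5:**
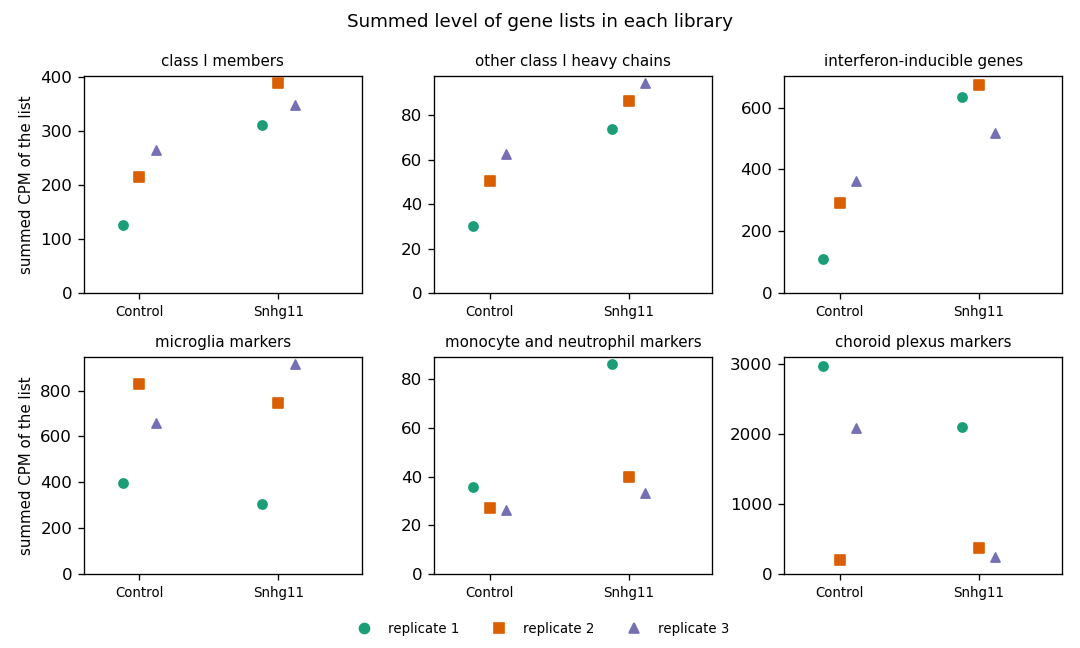
Summed CPM of 6 gene lists in each library, with points marked by replicate number and linear axes from 0. The class I genes, the other class I heavy chains and the interferon-inducible genes lie higher in all Snhg11-ASO samples, while the microglia, choroid plexus, and monocyte and neutrophil lists do not separate the groups in this way.

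Cell type markers were read beside these values. Of 17 microglia markers 8 had a log2 fold change above 0 (median -0.04), and 0 were past an unadjusted p of 0.05 by edgeR or called by DESeq2. The extremes were Itgam (0.68) and Siglech (-0.69). Their summed level overlapped between groups, at 398 to 829.6 CPM in Control-ASO and 305 to 917 CPM in Snhg11-ASO. Its lowest value was in Snhg11-ASO replicate 1, where Cx3cr1 was at 7.84 CPM against 32.2 to 55.8 CPM in the other samples. Not all markers of the list were low in that library. Itgam was highest there, at 18.3 CPM against 5.3 to 10.1 CPM in the other samples. C1qa, at 44.2 CPM, lay within the 31.7 to 99.7 CPM of the other samples. Tap1, Tap2, Tapbp and Nlrc5 were also highest in Snhg11-ASO replicate 1, as were 33.3% of all genes. Monocyte and neutrophil markers summed to 26.3 to 35.8 CPM in Control-ASO and to 39.9 and 33.1 CPM in Snhg11-ASO replicates 2 and 3. In Snhg11-ASO replicate 1 they summed to 86.3 CPM, with S100a8 at 22.3 CPM against at most 1.05 elsewhere. Not all markers of this list were high in that library. Ms4a7 was lowest there, at 0.629 CPM against 0.85 to 1.53 CPM elsewhere, and Lyz2 was at 19.7 CPM against 16.1 to 29.5 CPM elsewhere. All 8 tested genes of that list had a log2 fold change above 0 and 2 had an unadjusted p under 0.05, namely Ly6c2 with 2.14 and Plac8, while S100a8 had the largest value (3.96) and Ms4a7 the smallest (0.11). Endothelial markers had a median of -0.08, with 4 of 10 above 0, from -0.57 for Slco1c1 to 0.62 for Cdh5. Without Snhg11-ASO replicate 1, 9 of the 10 class I genes had an unadjusted p under 0.05 and were higher, against 4.41% of all genes. Without replicate 2 there were 5 of the 10 (4.79% of all genes) and without replicate 3 also 5 (4.81%).

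Control-ASO replicate 1, the lowest library for 9 of the class I genes, was also the lowest Control-ASO library in the summed level of microglia, astrocyte and oligodendrocyte markers. Astrocyte markers summed to 4839, 7121 and 6477 CPM across Control-ASO against 4256, 7136 and 7181 CPM across Snhg11-ASO, with 5 of 10 above 0, from Gjb6 (-0.52) to Sox9 (0.72, unadjusted p = 0.014 from edgeR). Gfap was at 417, 1984 and 1398 CPM against 948, 2375 and 2486 CPM. Oligodendrocyte markers were all above 0, 8 of 8 with a median of 0.29, from Cnp (0.13) to Mobp (0.51), and summed to 1687, 3095 and 2077 CPM against 1736, 3837 and 3021 CPM. The part of these cell type differences in the class I values was not tested.

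Choroid plexus genes, a mark of where the dissection ran, summed to 2970, 198 and 2087 CPM across Control-ASO against 2104, 372 and 237 CPM across Snhg11-ASO. All 10 had a log2 fold change below 0, with a median of -0.99, from -1.63 for Kcnj13 to -0.39 for Slc4a5, and 0 were past an unadjusted p of 0.05 by edgeR or called by DESeq2. High libraries occurred in both groups, and the part of this difference in the class I values was not tested. Hippocampal neuron markers were present in every library, at 3725 to 4475 CPM in sum. Of these 10 genes 7 had a log2 fold change below 0 (median -0.07), from Syt1 (-0.32, unadjusted p = 0.0135, adjusted p = 0.528 from edgeR) to Neurod2 (0.39).

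The strains behind these mice, C57/6Ei and C3H/HeSnJ, carry different H-2 haplotypes, whereas the reads were aligned to a C57BL/6J genome, and the H-2 haplotype of each mouse is not given in the sources used here. Polymorphic class I reads can be lost in alignment, and STAR leaves out pairs that match several near-identical heavy chain genes, so levels of H2-K1, H2-D1 and the H2-Q genes are uncertain. Some genes of the region with few counts varied widely without regard to group. Among them, H2-Q6 had 0 to 95 counts per library and H2-Ea-ps 1 to 32. H2-Q6 had 0, 0.446 and 0.772 CPM in Control-ASO and 0.131, 2.27 and 0.0458 CPM in Snhg11-ASO, and H2-Ea-ps, a class II gene, had 1.09, 0.238 and 0.327 CPM against 0.367, 0.0239 and 0.595 CPM. Their part in the heavy chain values was not tested. Of the 10 class I genes, 3 lie outside chromosome 17, B2m, Psmb10 and Nlrc5, and their log2 fold changes were 0.72, 0.44 and 1.11.

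The genes whose log2 CPM over the 6 samples was most like the mean standardised profile of the 10 genes were Gtf2f2, Sar1a, H2-T23, Dtx3l and Clcn3, with Pearson correlations of 0.994, 0.993, 0.993, 0.992 and 0.991. With 6 libraries that share depth and dissection differences, and many genes to choose from, such values are a description only. H2-T23 had a log2 fold change of 1.27, above each of the 10 class I genes (0.44 to 1.18). Dtx3l, with 1.05, lay within their range, while Gtf2f2, Sar1a and Clcn3 had 0.14, 0.18 and 0.15.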

How the data were processed

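Stranded, ribo-depleted RNA-seq of dorsal hippocampus was available for 3 Control-ASO and 3 Snhg11-ASO samples. The authors aligned read pairs to GRCm38 (mm10) with STAR 2.5.2a, per the submitters' processing notes, and deposited raw counts per gene. The methods name Rsubread, whereas the files have the layout of STAR's own counts. Reverse-strand counts were used, which held 96.2% to 96.8% of strand-resolved counts. Lines that name no gene (43.5% to 51.4% of read pairs, with the largest share in Control-ASO replicate 1) were left out. Totals ran from 28951250 to 43997537 and were higher in every Snhg11-ASO sample than in every Control-ASO sample.

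Symbols, positions and exon lengths came from GENCODE M21 (55141 of 55401 identifiers matched), which names H2-Ea as H2-Ea-ps. Low genes were left out by filterByExpr at a minimum count of 10. After TMM scaling (0.982 to 1.02) the groups were compared by edgeR 4.0.16 (R 4.3.3), a quasi-likelihood fit whose p-values were adjusted by Benjamini-Hochberg with a threshold of 0.05. Standard errors were |log2 fold change| over the root of F. Log2 CPM used a prior count of 2. The fit was also run on counts simulated with larger changes than those of the class I genes and the same dispersion for every gene. That run does not show that changes of the class I size would be called. The study used DESeq2 and removed 1 Snhg11-ASO sample that it does not name, and here all samples were kept. Each sample is described as 1 hippocampus, with nothing said of shared handling, so p-values measure the spread between these samples.

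Deviations from the group means correlated weakly between same-numbered samples (0.297, 0.179 and 0.103 across genes). Differently numbered samples were not compared, and the sample titles give replicate numbers only. These values do not show pairing, and the replicate block is an assumption. Alternatives were DESeq2 1.42.0, other scaling factors and filters, counts of both strands, the replicate block and leaving out each sample, and, added after seeing the data, robust edgeR and DESeq2 without each Snhg11-ASO sample. The 10 genes and all lists were chosen with earlier results of these data known. Beside the 10 genes, the rule named the extremes of each list, genes of a known role beside a class I gene and the 5 most similar genes. Other names were chosen after their values were seen, and 1 gene that the rule names is not reported here.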

Additional observations from a re-analysis of the deposited data

How the results depend on the processing

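Every one of the 10 class I genes kept a log2 fold change above 0 in all 17 alternatives. The number at an unadjusted p under 0.05 was 7 and ranged from 5 to 9 when each sample was left out in turn. In those leave-one-out fits 1.77% to 4.81% of all genes were higher at that level. Under the replicate block there were 10 (3.99% of all genes), where 0 of the 10 passed the adjusted threshold, as did 0 of all genes. DESeq2 called 3 of the 10 and 256 of all genes. DESeq2 without Snhg11-ASO replicates 1, 2 and 3 called 5, 2 and 3 of the 10, and 345, 270 and 215 of all genes. In edgeR, leaving out each sample in turn gave 0 of the 10, and 0 to 2 of all genes, with the 2 obtained without Snhg11-ASO replicate 1. The cause of the difference between the models was not tested. Nlrc5 was called in 4 alternatives, Tap1 and Tap2 in 3, Tapbp in 2 and H2-K1 in 1, all of them DESeq2, and the adjusted p of Nlrc5 ranged from 0.0139 to 0.951 and that of Tap1 from 0.00304 to 0.951. The subunit ratios kept their direction in the 7 alternatives run on them, and that of Psmb8 to Psmb5 was 0.25 without Control-ASO replicate 1. Single libraries moved H2-D1 most, to 0.18 without Snhg11-ASO replicate 2 and to 1.11 without Control-ASO replicate 3. Psmb9 had the fewest counts, 45 to 163 per library, and a standard error of 0.32, as had H2-K1.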
